A study of Mus musculus with 30 samples.

Results

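The cell cycle and DNA replication genes described here are a list of 43 genes chosen by their known function. Earlier results of these data were known when the list was chosen. All 43 were rows of the deposited expression table, which holds 11383 genes. By the phase in which they act, 20 are G2/M genes, 21 are G1/S and replication genes, and 2 (Cdkn1b and Cdkn2c) encode inhibitors of cyclin-dependent kinases (CDKs). RNA was sequenced from progenitor populations sorted from the bone marrow of wild-type mice, in 30 libraries that form 10 groups of 3. These included 4 populations taken 2 days after lipopolysaccharide (LPS, a bacterial cell wall component that triggers innate immune responses) and also from naive mice, namely GMP-MoP, the granulocyte-monocyte progenitor (GMP), and the neutrophil progenitors proNeu1 and proNeu2. The common monocyte progenitor (cMoP) and the monocyte-dendritic cell progenitor (MDP) were taken from naive mice. The series title attributes mixed features of neutrophil and monocyte progenitors to GMP-MoP. Sorting gates, the age and number of mice, and the dose and route of LPS are not stated in the labels used here. The labels call the 3 libraries of a group biological replicates and do not say whether each came from its own mouse, so p-values measure the spread between these libraries.

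Cells enter the cycle when D-type cyclins activate Cdk4 and Cdk6, which inactivate the retinoblastoma protein and release E2F transcription factors. E2F targets then supply the machinery of DNA synthesis: Cdc6 and Cdt1 load the Mcm helicase at origins, the GINS complex activates it, Pcna clamps the polymerase, and ribonucleotide reductase and thymidylate synthase make nucleotides. After replication, cyclins A and B with Cdk1, the Aurora and Polo kinases, the spindle checkpoint and the anaphase-promoting complex carry the cell through mitosis. Cycling is a property of early bone marrow progenitors, and neutrophil precursors keep dividing until they mature past the myelocyte stage.

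Values are FPKM, fragment counts normalised to exon length and library size, so that levels can be compared between genes. Between 23.6 M and 41.3 M assigned reads per library stood behind them, and a member had between 390 and 54216 reads in a library. Marker genes followed the labels in part. The summed FPKM of 8 monocyte lineage markers was 3782 to 3850 in naive cMoP and 164 to 245 in naive GMP, and that of 6 neutrophil secondary granule genes was 37289 to 49913 in naive proNeu2 and 4.07 to 9.22 in naive MDP. The GMP libraries stood apart in other lineages. All 8 eosinophil, basophil and mast cell markers were detected there, with summed levels of 6949 to 8295 FPKM in LPS GMP and 17249 to 18838 FPKM in naive GMP, against 9.43 to 711 FPKM over the libraries of the other 8 groups. The 6 erythroid and megakaryocyte markers summed to 66.0 to 85.3 FPKM in LPS GMP and 438 to 502 FPKM in naive GMP. LPS proNeu1 libraries were uneven in the secondary granule genes, which summed to 22051, 35813 and 54604 FPKM.

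The known promoter elements of these genes differ by phase. The CHR (cell cycle genes homology region) recruits the DREAM and MuvB complexes and the CCAAT box recruits NF-Y, both typical of G2/M genes, while E2F sites mark G1/S genes. A promoter window of 300 bases (250 before and 50 after the annotated start, from RefSeq on GRCm38.p6) was found for 36 of the 43 members; Aurkb, Ccna2, Ccnd2, Ccne2, Gins2, Mcm4 and Tpx2 had none. Windows were searched on both strands for the CHR as TTTGAA or TTCGAA, for E2F as TTTNNCGC, TTCCCGC or TTTGGCG (which can overlap one another), and for CCAAT. A CHR match lay in 13 of the 17 G2/M genes with a window (76.5%), in 2 of the 17 G1/S genes (11.8%) and in 16.8% of 8472 genes of the table. An E2F match lay in 1 of 17 G2/M genes (5.88%), 10 of 17 G1/S genes (58.8%) and 18.7% of all, and a CCAAT match in 15 of 17 (88.2%), 10 of 17 (58.8%) and 43.7%. These are letter matches, given as a description and not as bound sites.

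**Figure D1:**
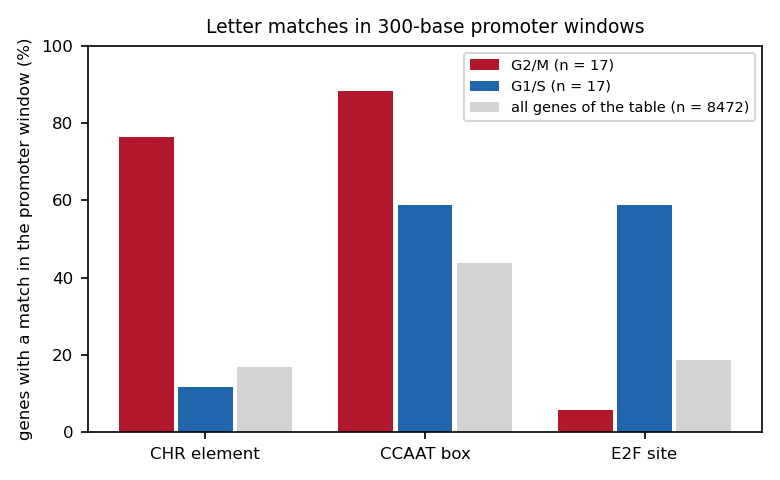
Share of genes (y axis, percent) whose promoter window holds a CHR element, a CCAAT box or an E2F site (x axis), for G2/M genes, G1/S and replication genes and all genes of the table with a window. The CHR bar is highest for the G2/M genes (76.5%) and the E2F bar for the G1/S genes (58.8%).

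Like most of their class, 4 G2/M members rose along the neutrophil stages described below, and their promoters are shown as picked examples. They cover the 250 bases before the start, 5′ to 3′ in the direction of transcription, with every CHR, CCAAT and E2F match on either strand in capitals. In Cdc20 and Kif11 the CHR begins at positions -18 and -19 from the start, close downstream of a CCAAT match, and Cdk1 holds matches to all 3 elements.
Cdc20 (chr4:118437344-118437593, minus strand): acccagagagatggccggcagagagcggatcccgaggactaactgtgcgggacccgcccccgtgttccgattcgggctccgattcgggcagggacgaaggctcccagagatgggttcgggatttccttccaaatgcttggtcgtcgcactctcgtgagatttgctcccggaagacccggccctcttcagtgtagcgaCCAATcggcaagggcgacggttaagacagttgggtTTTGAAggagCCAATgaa
Mki67 (chr7:135716380-135716629, minus strand): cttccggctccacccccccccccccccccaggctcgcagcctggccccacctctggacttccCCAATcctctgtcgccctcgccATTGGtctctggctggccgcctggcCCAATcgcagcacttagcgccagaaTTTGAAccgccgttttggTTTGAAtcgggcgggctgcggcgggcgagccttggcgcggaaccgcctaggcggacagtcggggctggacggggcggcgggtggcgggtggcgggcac
Kif11 (chr19:37376132-37376381, plus strand): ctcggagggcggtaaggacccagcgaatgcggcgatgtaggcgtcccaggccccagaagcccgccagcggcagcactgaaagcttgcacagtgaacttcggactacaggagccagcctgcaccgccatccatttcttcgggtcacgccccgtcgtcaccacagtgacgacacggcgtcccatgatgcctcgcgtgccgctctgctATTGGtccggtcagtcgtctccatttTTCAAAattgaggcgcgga
Cdk1 (chr10:69352913-69353162, minus strand): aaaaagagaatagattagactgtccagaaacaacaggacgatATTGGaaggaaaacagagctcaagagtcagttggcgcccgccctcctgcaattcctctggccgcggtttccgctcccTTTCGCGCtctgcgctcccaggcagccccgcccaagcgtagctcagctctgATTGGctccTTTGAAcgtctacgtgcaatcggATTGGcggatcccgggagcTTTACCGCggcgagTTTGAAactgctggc

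Promoters of 3 replication members are shown in the same way for contrast. None of these stretches holds a CHR match, and each holds at least 1 E2F match. In Rrm1 it lies at position -67, between a pair of CCAAT matches. These too are picked examples: among the 17 G1/S genes with a window, an E2F match lay in 10, and Mcm2 and Mcm7 hold a CHR match.
Mcm5 (chr8:75109259-75109508, plus strand): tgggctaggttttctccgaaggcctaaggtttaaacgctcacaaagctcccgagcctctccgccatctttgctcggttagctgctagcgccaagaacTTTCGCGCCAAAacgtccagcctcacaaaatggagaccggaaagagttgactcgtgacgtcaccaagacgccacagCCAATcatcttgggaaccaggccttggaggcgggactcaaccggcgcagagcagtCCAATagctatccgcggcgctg
Mcm6 (chr1:128359706-128359955, minus strand): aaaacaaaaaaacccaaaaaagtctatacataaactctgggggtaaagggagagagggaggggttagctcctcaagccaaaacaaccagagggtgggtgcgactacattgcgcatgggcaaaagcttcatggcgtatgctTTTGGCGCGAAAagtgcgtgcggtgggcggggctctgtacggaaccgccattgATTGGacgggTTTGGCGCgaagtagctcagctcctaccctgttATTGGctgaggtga
Rrm1 (chr7:102441445-102441694, plus strand): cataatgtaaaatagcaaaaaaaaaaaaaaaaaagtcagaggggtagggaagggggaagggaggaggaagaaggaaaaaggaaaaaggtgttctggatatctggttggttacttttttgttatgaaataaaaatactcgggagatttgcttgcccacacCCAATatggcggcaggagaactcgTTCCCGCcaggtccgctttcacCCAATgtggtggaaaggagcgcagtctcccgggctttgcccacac

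The 43 genes were well expressed, with a mean over the 30 libraries of 10.1 to 282 FPKM (median 59.6), and the median member lay above 89.6% of all genes of the table. Their levels varied modestly. The ratio of the highest to the lowest group mean had a median of 1.96 among members, against 2.09 over the 11207 genes with a ratio. The widest ratio, 9.27, belonged to Ccnd2 (cyclin D2), and Plk1, the Polo kinase of mitotic entry, had the widest of the G2/M genes at 3.597. The classes peaked in different populations. Among the 6 naive groups, 17 of 20 G2/M genes were highest in proNeu2 and 16 were lowest in GMP. Of the 21 G1/S and replication genes, 11 were highest in MDP and 7 in cMoP, while 9 were lowest in proNeu2 and 7 in GMP. These peaks describe group means and carry no test. With each library divided by a median-of-ratios factor, 20 G2/M genes were highest in proNeu2 and 17 lowest in GMP. The G1/S peaks depended on this scaling: 10 were then highest in cMoP and 7 in MDP, while 14 were lowest in GMP and 4 in proNeu2.

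**Figure D2:**
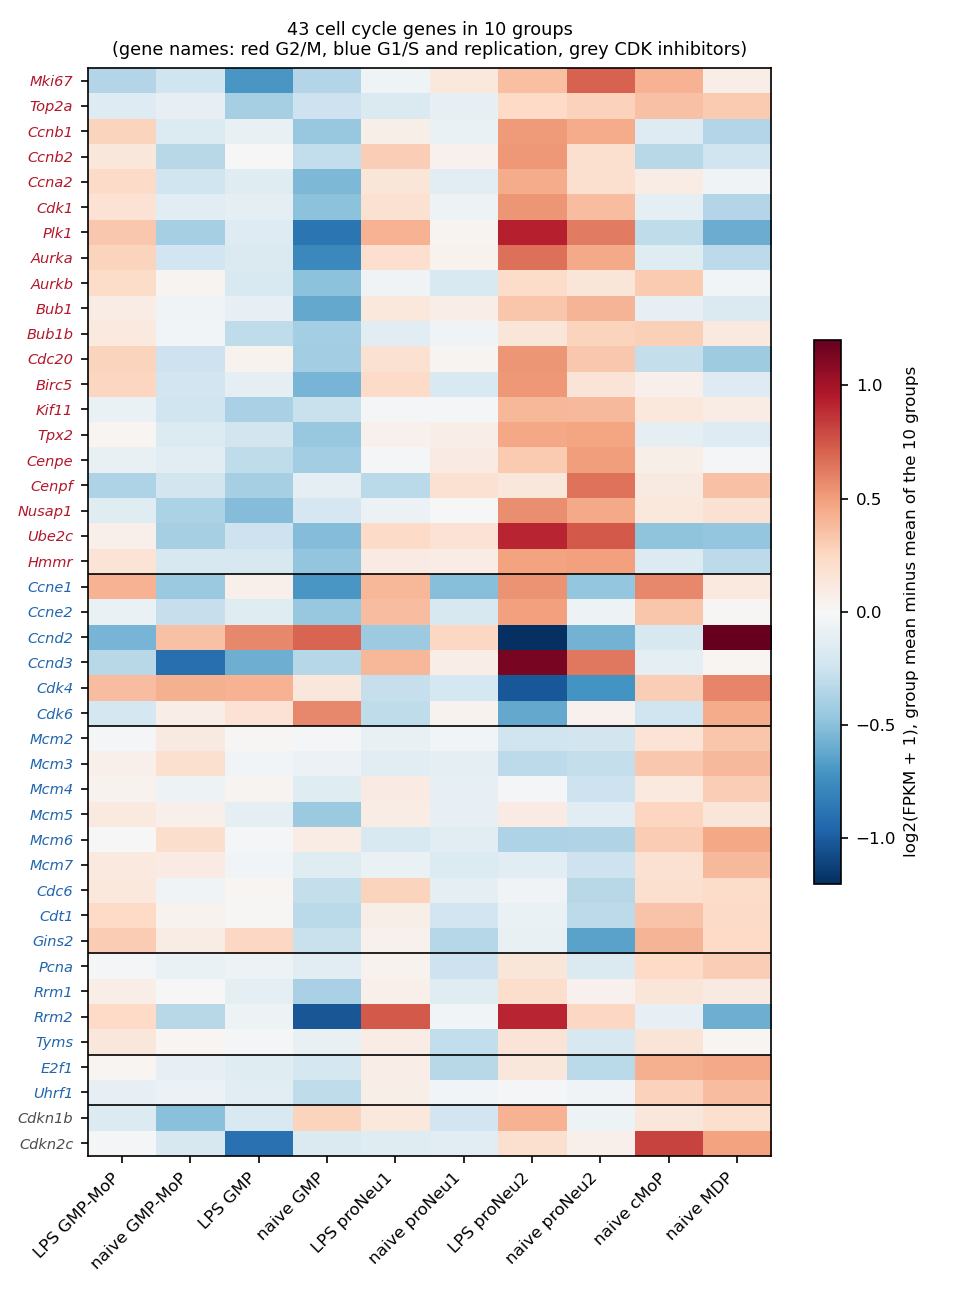
Group mean of log2(FPKM + 1) of each of the 43 genes (rows, grouped by role) in the 10 groups (columns), minus the gene's mean over the groups; red is above and blue below that mean. G2/M genes are red in the proNeu2 columns and blue in naive GMP, while Ccnd2 and Cdk4 are red in naive MDP and blue in the proNeu2 columns.

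The median of the 20 G2/M genes on the log2(FPKM + 1) scale, taken per library, was 5.13 ± 0.11 in naive GMP, 5.79 ± 0.13 in naive proNeu1 and 6.12 ± 0.10 in naive proNeu2 (SD, n = 3 each). In naive GMP-MoP it was 5.42 ± 0.25, with libraries at 5.68, 5.41 and 5.17. It was 5.49 ± 0.08 in naive cMoP and 5.38 ± 0.15 in naive MDP. The same median over the 21 G1/S genes moved less among naive groups and lay between 6.34 ± 0.20 in GMP-MoP, next to 6.35 ± 0.04 in GMP, and 6.70 ± 0.01 in MDP. The order of the G1/S medians depended on scaling, since with median-of-ratios factors they were 6.23 in GMP, 6.66 in proNeu1, 6.64 in proNeu2 and 6.55 in MDP, while the naive groups kept their order in the G2/M medians. G1/S genes thus had the higher median in each of the 10 groups, by 0.11 in LPS proNeu2 and by up to 1.32 in naive MDP on the log2 scale. In sorted bulk RNA a smaller share of cells in a phase and less RNA per cell cannot be told apart.

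**Figure D3:**
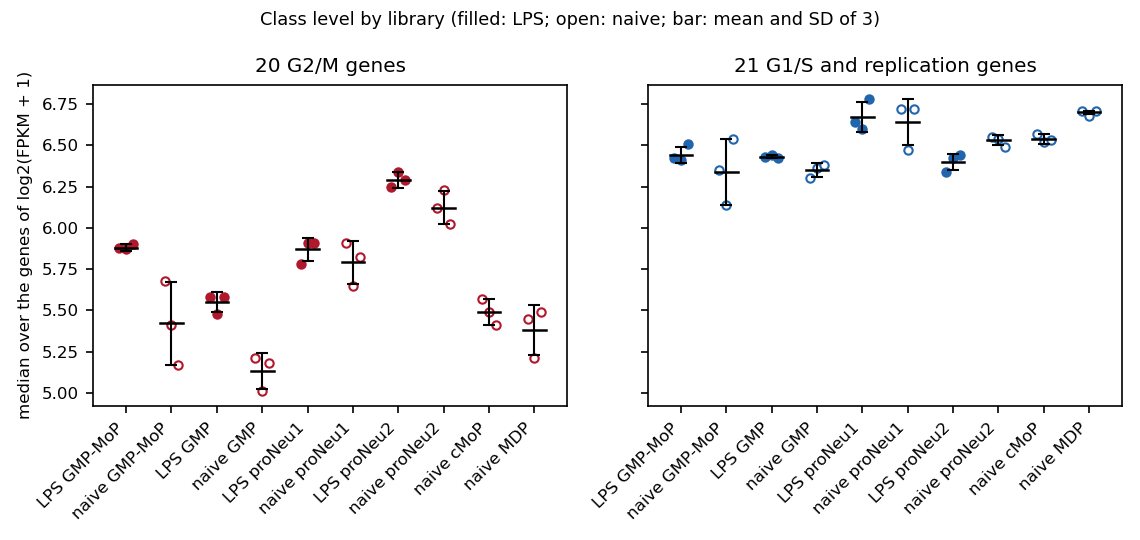
Median over the genes of a class of log2(FPKM + 1) (y axis) in each library of the 10 groups (x axis), for the 20 G2/M genes and the 21 G1/S and replication genes; points are libraries, filled for LPS and open for naive, and bars give the mean and SD of 3. The G2/M medians climb from naive GMP (5.13) to naive proNeu2 (6.12), and the 3 naive GMP-MoP libraries are spread widely.

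Entry into the neutrophil lineage was tested as naive proNeu1 against naive GMP. G2/M genes were higher in proNeu1: 17 of 20 passed the test (Benjamini-Hochberg adjusted p under 0.05 in limma, over all 11383 genes, at any fold), 0 were lower, and the median log2 fold change was 0.42, against -0.14 over all genes. At that threshold 18.5% of all genes were higher and 39.7% lower. Plk1 stood at 63.9, 49.4 and 57.7 FPKM in the proNeu1 libraries, against 28.1, 29.1 and 31.8 FPKM in the GMP libraries (log2 fold change 0.91 ± 0.10, SE, adjusted p = 1.41e-08). Every proNeu1 library was above every GMP library. Aurka (the Aurora kinase of the spindle poles) was at 49.1 ± 3.75 FPKM in proNeu1 and 27.3 ± 1.16 FPKM in GMP (log2 fold change 0.82), and Bub1, a spindle checkpoint kinase, at 33.9 ± 1.11 and 20.5 ± 0.802 FPKM in the same order (0.69). Top2a, Nusap1 and Cenpf (a DNA topoisomerase, a spindle protein and a kinetochore protein) were the 3 members of the class that did not pass, with log2 fold changes of 0.16, 0.20 and 0.30.

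G1/S genes did not move together at this step: 6 were higher and 5 lower, with a median of -0.01. Rrm2, the small subunit of ribonucleotide reductase, had the largest fold change among them, at 167, 153 and 169.8 FPKM in proNeu1 and 77.6, 81.4 and 84.5 FPKM in GMP, a log2 fold change of 1.00 ± 0.07 that lay just under the 2-fold threshold before rounding (adjusted p = 4.88e-12). Of the 9 licensing and origin firing genes only Mcm5 was higher (0.35) and Mcm6 lower (-0.21), both helicase subunits, and the other 7 did not pass. The call of a change of 2-fold or more was made for 0 members, but for Rrm2 and Plk1 without proNeu1 library 2, and for Rrm2 without GMP library 2 or 3; 12.4% of all genes had such a call. The step depended on scaling: dividing each library by a median-of-ratios factor shifted the median of all genes from -0.14 to -0.01, after which 12 G1/S genes were higher and 3 lower, and 20 G2/M genes were higher. The eosinophil, basophil and mast cell markers moved with this comparison (232 to 711 FPKM summed in naive proNeu1, 17249 to 18838 FPKM in naive GMP), as did the erythroid and megakaryocyte markers (19.1 to 28.5 FPKM in naive proNeu1, 438 to 502 FPKM in naive GMP). Their part in the result was not tested.

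The next stage repeated the G2/M difference. In naive proNeu2 against naive proNeu1, which shares the proNeu1 libraries with the step before, 19 of 20 G2/M genes were higher at any fold (median log2 fold change 0.41, all genes -0.06), where 10% of all genes were higher and 21.4% lower. Plk1 reached 88.2, 91.6 and 78.3 FPKM in proNeu2, against 63.9, 49.4 and 57.7 FPKM in proNeu1 (0.59 ± 0.10, adjusted p = 6.33e-05). Mki67, the proliferation antigen, was at 156 ± 33.0 FPKM in proNeu2 and 103 ± 7.45 FPKM in proNeu1 (0.58), Ube2c, a ubiquitin-conjugating enzyme of the anaphase-promoting complex, at 90.1 ± 3.5 and 61.0 ± 5.12 FPKM (0.56), and Ccnb1 (cyclin B1) at 88.4 ± 5.89 and 61.4 ± 6.71 FPKM (0.52). In each of these 4 genes the 2 groups did not overlap. Ccnb2 was the G2/M gene that did not pass (0.14).

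Replication genes did not follow. Of the 9 licensing and origin firing genes 0 were higher and 4 were lower in proNeu2: Gins2 (-0.30), Mcm6 (-0.24), Mcm2 (-0.19) and Mcm3 (-0.16). Rrm1 and Rrm2, the 2 subunits of ribonucleotide reductase, were higher (0.20 and 0.29). Over all 21 G1/S genes 3 were higher and 6 lower, the lower ones being these 4 licensing genes, Ccnd2 (-0.81) and Cdk4 (-0.51). With median-of-ratios scaling the lower count fell to 3, so the number of lower licensing genes depended on scaling. Under it 20 G2/M genes were higher. A 2-fold change was found for 0 members and for 1.34% of all genes. Gins2 shares 67.3% of its annotated exon bases with Gse1, so its reads cannot be told apart from those of that gene without the strand setting used for counting.

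The G1 cyclins and kinases took opposite courses along the same stages. Ccnd2 (chromosome 6, 127125162 to 127152193, GRCm38) was at 33.8, 37.4 and 34.0 FPKM in naive GMP, 27.4, 22.8 and 26.2 FPKM in naive proNeu1, and 15.5, 14 and 12.8 FPKM in naive proNeu2. The libraries of the 3 stages did not overlap, and both steps passed the test (-0.45 and -0.81). Cdk4 (chromosome 10, 127063534 to 127067920), a catalytic partner of the D cyclins, stood at 171, 184 and 180.2 FPKM in GMP, 136, 142 and 142 FPKM in proNeu1, and 92.8, 98.9 and 103 FPKM in proNeu2 (-0.35 and -0.51). Ccnd3 (cyclin D3, chromosome 17, 47505051 to 47599691) ran the other way, at 75.7, 67.4 and 82.2 FPKM in GMP, 110.5, 87.6 and 106 FPKM in proNeu1, and 155, 156 and 133 FPKM in proNeu2 (0.42 and 0.55). Cdk6 was at 88.7 ± 7.36 FPKM in GMP, 61.0 ± 0.867 FPKM in proNeu1 and 61.3 ± 5.22 FPKM in proNeu2, lower at the first step (-0.53), with a log2 fold change of 0.00 ± 0.06 at the second (adjusted p = 0.972). Cdk4 shares 19.7% of its exon bases with Tspan31 and Ccnd2 7.87% with neighbouring transcripts. Besides Gins2, the other members over 5% are Ube2c (22.8%), Ccne2 (17.4%), Mcm7 (12.6%), Ccna2 (12.5%) and Plk1 (7.09%).

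**Figure D4:**
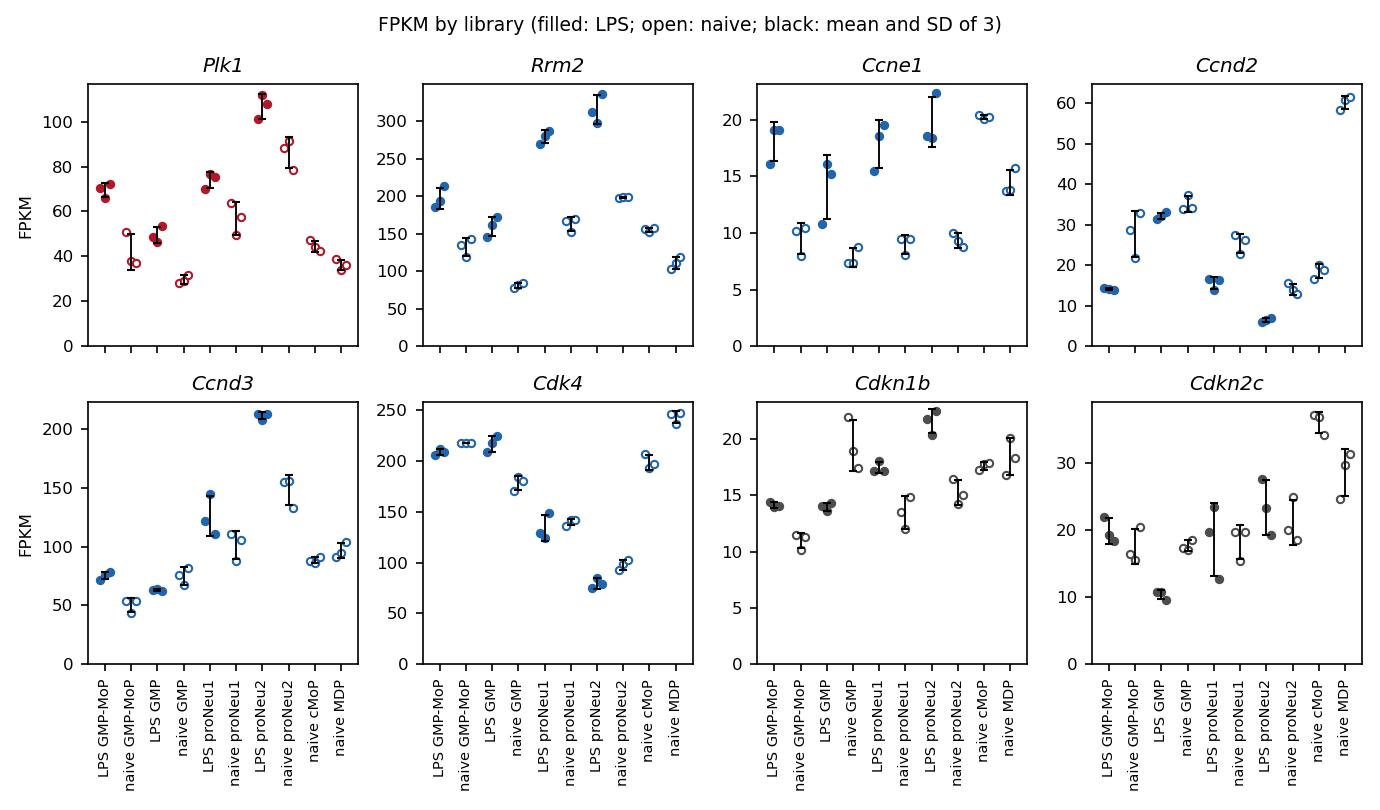
FPKM (y axis) of 8 members in each library of the 10 groups (x axis); points are libraries, filled for LPS and open for naive, and black marks give the mean and SD of 3. Ccnd2 and Cdk4 decline and Ccnd3 and Plk1 climb from naive GMP to naive proNeu2, and Ccne1 and Rrm2 are higher in LPS than in naive libraries of each population.

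Naive GMP-MoP was compared with naive GMP, cMoP and proNeu1, comparisons that share the naive GMP-MoP libraries. Against naive GMP, more members of both classes were higher than lower in naive GMP-MoP. The G1/S median per library on the log2 scale differed little, at 6.34 ± 0.20 in GMP-MoP and 6.35 ± 0.04 in GMP. The G2/M medians overlapped, with GMP-MoP library 3 at 5.17 and GMP library 1 at 5.21. At any fold, 12 of 20 G2/M genes were higher and 0 lower (median 0.28), and 10 of 21 G1/S genes were higher and 3 lower (median 0.24), where 21.4% of all genes were higher and 29.1% lower (median -0.04). Rrm2 was at 135, 119 and 143 FPKM in GMP-MoP, against 77.6, 81.4 and 84.5 FPKM in GMP (0.70 ± 0.07, adjusted p = 6.13e-09). Bub1 was at 31.2 ± 2.10 FPKM in GMP-MoP and 20.5 ± 0.802 FPKM in GMP (0.58), and Mcm5 at 152 ± 12.6 and 106 ± 3.03 FPKM (0.51); no library of either gene crossed between groups. The lower members were the G1 regulators Ccnd3 (-0.57), Cdk6 (-0.50) and Ccnd2 (-0.35), and the inhibitor Cdkn1b (p27, -0.76). No member changed 2-fold, as 8.55% of all genes did. Without naive GMP library 2, 1 G2/M gene was lower. Eosinophil, basophil and mast cell markers summed to 18.8 to 39.4 FPKM in naive GMP-MoP and 17249 to 18838 FPKM in naive GMP, and erythroid and megakaryocyte markers to 2.06 to 2.89 FPKM and 438 to 502 FPKM. Their part in the result was not tested.

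Against naive cMoP, members of both classes were lower in naive GMP-MoP. Of 20 G2/M genes 0 were higher and 8 lower, and 2 of 21 G1/S genes were higher and 14 lower, where 19.9% of all genes were higher and 20.1% lower at any fold. Ccne1 (cyclin E1, chromosome 7, 38097984 to 38107534), the partner of Cdk2 at S phase entry, was at 10.2, 7.96 and 10.4 FPKM in GMP-MoP, against 20.43, 20.03 and 20.23 FPKM in cMoP. The groups were well apart, and the difference passed 2-fold (-1.02 ± 0.12, adjusted p = 1.89e-07). Cdkn2c (p18, an inhibitor of Cdk4 and Cdk6, chromosome 4, 109660876 to 109667189) was at 16.4, 15.6 and 20.5 FPKM in GMP-MoP, against 37.0, 36.7 and 34.1 FPKM in cMoP (-1.01 ± 0.16, adjusted p = 1.42e-05). These were the 2 members changed 2-fold, as were 4.6% of all genes. Ccnd3 (-0.80), Mki67 (-0.65) and Ccne2, cyclin E2 (-0.61), followed, and Ccnd2 (0.54) and Cdk6 (0.32) were higher in GMP-MoP. Of the licensing genes 6 of 9 were lower and 0 higher. Without GMP-MoP library 2, the G1/S count lower was 8 and the 2-fold count 0; without GMP-MoP library 1 or cMoP library 1 or 2, the 2-fold count was 1; without GMP-MoP library 3, 1 G2/M gene was higher.

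Against naive proNeu1, the counts of the classes parted, but their medians did not. The G1/S median per library on the log2 scale was 6.34 ± 0.20 in GMP-MoP and 6.64 ± 0.14 in proNeu1. The G2/M median was 5.42 ± 0.25 and 5.79 ± 0.13, and the libraries of the groups overlapped in both medians. In GMP-MoP 10 of 20 G2/M genes were lower and 1, Aurkb (the chromosomal passenger kinase, 0.21), was higher, while 12 of 21 G1/S genes were higher and 2 lower; of all genes 17.5% were lower and 30.2% higher. Of the replication licensing genes 7 of 9 were higher and 0 lower, with a median of 0.27, against 0.09 over all genes. Ube2c was at 41.2 ± 8.48 FPKM in GMP-MoP and 61.0 ± 5.12 FPKM in proNeu1 (-0.57), and Plk1 at 42 ± 7.86 and 57.0 ± 7.27 FPKM (-0.44), with groups that overlapped for Plk1. Cdk4 was at 218, 218 and 218 FPKM in GMP-MoP, against 136, 142 and 142 FPKM in proNeu1 (0.64 ± 0.06, adjusted p = 9.49e-10), and Ccnd3 at 53.4, 43.6 and 54.1 FPKM in GMP-MoP, against 110.5, 87.6 and 106 FPKM in proNeu1 (-0.99 ± 0.09). With median-of-ratios scaling 7 G1/S genes were higher, 13 G2/M genes lower and 0 G2/M genes higher, and Ccnd3 passed 2-fold, where 5.7% of all genes changed 2-fold without this scaling. Without GMP-MoP library 3, 7 G1/S genes were higher and 5 G2/M genes lower, and without proNeu1 library 1 the G2/M count was also 5; without GMP-MoP library 1 or proNeu1 library 2, 0 G2/M genes were higher, and Ccnd3 passed 2-fold without GMP-MoP library 1 or 3 or proNeu1 library 2.

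**Figure D5:**
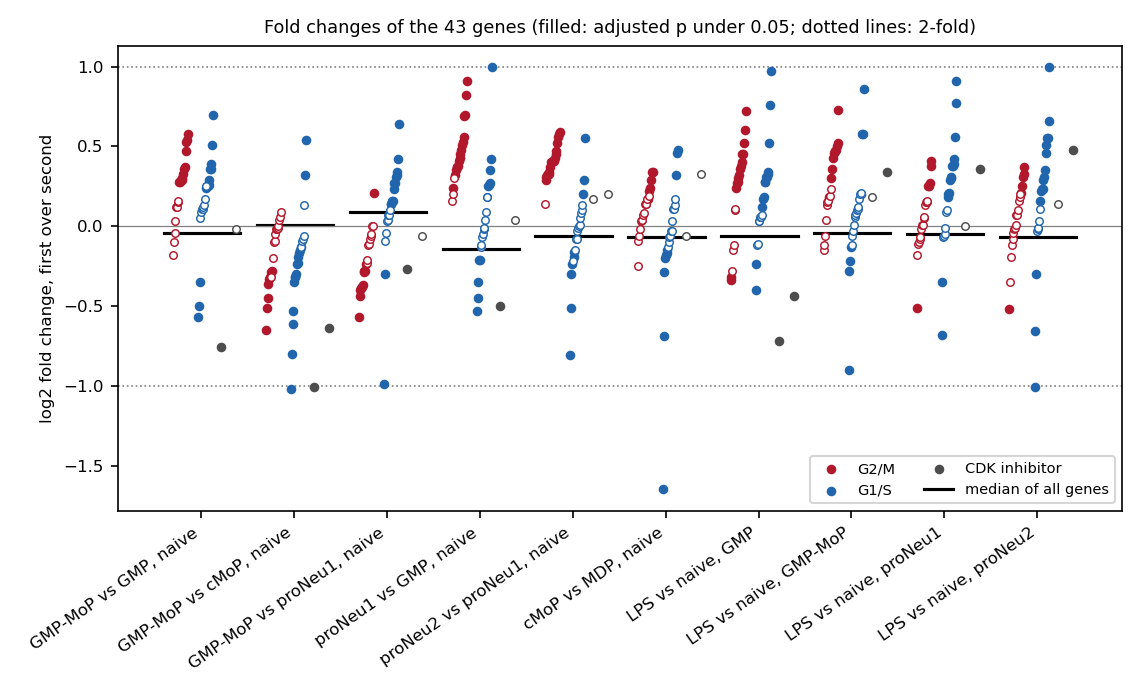
Log2 fold change on the log2(FPKM + 1) scale (y axis) of each of the 43 genes in the 10 comparisons of 2 groups (x axis), by class; filled points have an adjusted p under 0.05, the black bars are the medians of all genes and the dotted lines mark 2-fold. The G2/M points lie above the bar in both neutrophil steps, and the lowest point is Ccnd2 in cMoP against MDP (-1.65).

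Along the monocyte path, naive cMoP was compared with naive MDP. Ccnd2 was the 1 member changed 2-fold, at 16.6, 20.2 and 18.8 FPKM in cMoP, against 58.3, 60.6 and 61.4 FPKM in MDP (-1.65 ± 0.10, adjusted p = 1.19e-12), where 7.54% of all genes changed that much. Cdk6 (-0.69) and Cdk4 (-0.29) were lower as well, and Rrm2 (0.48), Ccne1 (0.46) and Ccne2 (0.32) higher in cMoP. At any fold 6 of 20 G2/M genes were higher and 0 lower, and 3 of 21 G1/S genes were higher and 7 lower, where 18.2% of all genes were higher and 28.8% lower. With median-of-ratios scaling these counts became 11 G2/M genes higher and 8 G1/S genes higher with 3 lower, so the direction of the G1/S class depended on scaling. Without MDP library 2, 2 G2/M genes were higher, and without cMoP library 1, 3.

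After LPS, in the fit of all libraries, more G2/M genes rose than fell in each of the 4 populations. By these counts the same held for G1/S genes except in GMP-MoP. In GMP, 13 of 20 G2/M genes rose and 2 fell (median 0.29), and 12 of 21 G1/S genes rose and 2 fell (median 0.17), where 19.3% of all genes rose and 29.6% fell at any fold (median -0.06). In GMP-MoP, 11 G2/M genes rose and 0 fell (median 0.27), against 4 G1/S genes that rose and 4 that fell (0.08), where 13.4% of all genes rose and 17.6% fell. In proNeu1, 5 G2/M genes rose and 1 fell (0.05), and 13 G1/S genes rose and 2 fell (0.21), with 11.2% and 17.2% of all genes. In proNeu2, likewise, 5 G2/M genes rose and 1 fell (0.07), and 13 G1/S genes rose and 3 fell (0.23), with 12.6% and 24.1% of all genes. The G2/M count in proNeu2 turned without naive library 3, where 2 rose and 3 fell. Whether the class counts differ between populations was not tested as such; the differences of single genes are given further on.

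Rrm2 and Ccne1 rose in each of the 4 populations. Rrm2 (chromosome 12, 24708241 to 24714146) was at 146, 162 and 172 FPKM in LPS GMP, against 77.6, 81.4 and 84.5 FPKM in naive GMP (0.97 ± 0.07, adjusted p = 8.09e-11). In GMP-MoP it was at 186, 194 and 213 FPKM after LPS, against 135, 119 and 143 FPKM in naive libraries (0.58). In proNeu1 the LPS libraries stood at 270.1, 280.5 and 287.5 FPKM, against 167, 153 and 169.8 FPKM in naive ones (0.77). In proNeu2 they stood at 312, 298 and 336 FPKM, against 198, 199 and 199 FPKM (0.66). No LPS library overlapped a naive one in any of the 4 populations.

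Ccne1 was at 10.8, 16.1 and 15.2 FPKM in LPS GMP, against 7.35, 7.34 and 8.77 FPKM in naive GMP (0.76 ± 0.12). In GMP-MoP it was at 16.1, 19.1 and 19.1 FPKM after LPS, against 10.2, 7.96 and 10.4 FPKM in naive libraries (0.86). In proNeu1 it was at 15.5, 18.6 and 19.5 FPKM, against 9.51, 8.05 and 9.45 FPKM (0.91). In proNeu2 it was at 18.6, 18.4 and 22.3 FPKM, against 9.99, 9.28 and 8.73 FPKM (1.00 ± 0.12, adjusted p = 8.88e-07). Here too every LPS library was above every naive one, and in proNeu2 the difference reached 2-fold, where 0.993% of all genes did so in either direction. That call was lost without naive library 2 or 3 or LPS library 3, and 2-fold was also passed in proNeu1 without LPS library 1. Ccne2 rose in GMP (0.31), proNeu1 (0.56) and proNeu2 (0.55) and did not pass in GMP-MoP (0.20).

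Among the 43 members, 7 rose in all 4 populations, as 3.93% of all genes did. They were the mitotic genes Plk1, Ccna2 (cyclin A2), Ccnb2 (cyclin B2) and Birc5 (survivin), and the G1/S and replication genes Ccne1, Rrm2 and Cdt1. Plk1 rose to 69.4 ± 3.2 FPKM in LPS GMP-MoP, against 42 ± 7.86 FPKM in naive GMP-MoP (0.73), with 0.72 in GMP, 0.38 in proNeu1 and 0.31 in proNeu2. Birc5, a chromosomal passenger protein, had log2 fold changes of 0.45 in GMP, 0.48 in GMP-MoP, 0.41 in proNeu1 and 0.37 in proNeu2. Cdk6 was the 1 member that fell in all 4, as 4.89% of all genes did, by 0.40 in GMP, 0.28 in GMP-MoP, 0.35 in proNeu1 and 0.66 in proNeu2 on the log2 scale. With median-of-ratios scaling Cdk1 and Gins2 joined the members that rose in all 4, making 9 (5.74% of all genes).

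Ccnd2 fell with LPS in 3 populations. In proNeu2 it was at 5.94, 6.50 and 7 FPKM after LPS, against 15.5, 14 and 12.8 FPKM in naive libraries (-1.01 ± 0.10, adjusted p = 1.10e-07), past 2-fold. That call was lost with median-of-ratios scaling (-0.95) and without naive library 1 or LPS library 1. In GMP-MoP the LPS libraries stood at 14.5, 14.1 and 13.9 FPKM, against 28.6, 21.7 and 32.8 FPKM (-0.90; -1.06 without naive library 2), where 1.13% of all genes changed 2-fold. In proNeu1 they stood at 16.5, 13.9 and 16.3 FPKM, against 27.4, 22.8 and 26.2 FPKM (-0.68), where 1.47% did. In GMP they stood at 31.4, 32.0 and 33.0 FPKM, against 33.8, 37.4 and 34.0 FPKM (-0.12, adjusted p = 0.357): the LPS libraries lay below the naive ones, by less than the test detected. Ccnd3 rose in GMP-MoP (0.58), proNeu1 (0.31) and proNeu2 (0.51) and fell in GMP (-0.24), and reached 213, 208 and 213 FPKM in LPS proNeu2. Cdk4 rose in GMP (0.28), fell in proNeu2 (-0.30) and did not pass in GMP-MoP (-0.06) or proNeu1 (-0.07).

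Some mitotic genes went against their class. In LPS GMP, Mki67 and Nusap1 fell, by 0.34 and 0.32 on the log2 scale. Cenpf, a large kinetochore protein, fell in proNeu1 (to 8.47 ± 1.77 FPKM after LPS, against 12.4 ± 1.23 FPKM in naive libraries, -0.51) and in proNeu2 (12 ± 1.82 and 17.7 ± 3.72 FPKM, -0.52). LPS and naive libraries overlapped for Mki67 in GMP and Cenpf in proNeu2, but not for Nusap1 in GMP or Cenpf in proNeu1. In GMP the 2 G2/M falls were lost without naive library 1 or LPS library 2, and 1 was left without naive library 2 or LPS library 1 or 3; the G1/S falls, of Cdk6 and Ccnd3, were reduced to 1 without naive library 1 or 3 or any LPS library. With median-of-ratios scaling 1 G2/M and 1 G1/S gene fell in GMP, and Rrm2 passed 2-fold there, as it did without LPS library 1 ; without either step 3.95% of all genes changed 2-fold. The fall of Cenpf in proNeu1 was lost without naive library 1 or LPS library 1 or 3. In proNeu1, 3 G2/M genes rose without naive library 2. In proNeu2, 3 rose without naive library 1 and 2 without naive library 3 or LPS library 2, and 0 fell without naive library 1 or LPS library 3, 3 without naive library 3 and 2 without LPS library 1. The eosinophil, basophil and mast cell markers, at 6949 to 8295 FPKM in LPS GMP and 17249 to 18838 FPKM in naive GMP, moved with the GMP results, as did the erythroid and megakaryocyte markers, at 66.0 to 85.3 FPKM and 438 to 502 FPKM. Their part in these results was not tested.

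Genes of DNA synthesis rose in the proNeu populations. All 4 genes of nucleotide supply and the replication fork rose in both proNeu1 and proNeu2: Pcna by 0.29 in proNeu1 and 0.31 in proNeu2, Tyms (thymidylate synthase) by 0.38 and 0.35, Rrm1 by 0.21 and 0.16, and Rrm2 as above. Of the 9 licensing genes 5 rose and 0 fell in each of these populations, 6 rose and 0 fell in GMP, and 1 (Cdt1, 0.20) rose while Mcm3 (-0.13) and Mcm6 (-0.22) fell in GMP-MoP. E2f1, the activating E2F factor, rose in proNeu1 (23.9 ± 0.664 FPKM after LPS, 17.7 ± 1.62 FPKM naive, 0.42) and proNeu2 (24.9 ± 2.54 and 17.8 ± 1.78 FPKM, 0.46). It did not pass in GMP (0.06) or GMP-MoP (0.12).

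Both CDK inhibitors fell in GMP after LPS. Cdkn1b (chromosome 6, 134920401 to 134925513) was at 14, 13.6 and 14.3 FPKM in LPS GMP, against 21.9, 18.9 and 17.4 FPKM in naive GMP (-0.44 ± 0.08, adjusted p = 4.56e-05). It rose in GMP-MoP to 14.4, 14 and 14.1 FPKM, against 11.5, 10.2 and 11.3 FPKM in naive libraries (0.34), and also in proNeu1 (0.36) and proNeu2 (0.48). In none of the 4 did LPS and naive libraries overlap. Cdkn2c was at 10.8, 10.7 and 9.54 FPKM in LPS GMP, against 17.3, 16.9 and 18.5 FPKM in naive GMP (-0.72 ± 0.16), and did not pass in GMP-MoP (0.18), proNeu1 (-0.00) or proNeu2 (0.14). The LPS proNeu1 libraries of Cdkn2c were spread, at 19.7, 23.4 and 12.7 FPKM.

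Interaction terms tested whether the LPS effect differed between populations, with the GMP effect shared by the first 2 of them. Between GMP-MoP and GMP, 10 members passed at any fold, 4 with a higher effect in GMP-MoP and 6 with a lower one, where 13.8% of all genes were higher and 11.1% lower. The inhibitors Cdkn2c (0.90 ± 0.22, adjusted p = 0.00478) and Cdkn1b (0.78 ± 0.11, adjusted p = 8.57e-06), Ccnd3 (0.82) and Nusap1 (0.55) had the higher effect in GMP-MoP, and Ccnd2 (-0.78) the lower. Between proNeu1 and GMP, 10 passed, 5 each way, where 11.9% of all genes were higher and 10.2% lower. In both of these comparisons the share of members that passed lay near that of all genes, so the counts do not set the list apart. Between proNeu1 and GMP, Cdkn1b (0.80) and Cdkn2c (0.71) had the largest differences, and the spindle genes Bub1 (-0.46) and Aurka (-0.45) had the lower effect in proNeu1. None of these differences reached 2-fold in the fit of all libraries, as 3.92% and 3.36% of all genes did, though Cdkn2c did (1.01) without naive GMP-MoP library 3. Between proNeu2 and proNeu1, 0 members passed, where 0.114% of all genes were higher and 0.193% lower. At an unadjusted p under 0.05 in limma, 0 members were higher and 3 lower. The 8 eosinophil, basophil and mast cell markers also moved with LPS in GMP, to 6949 to 8295 FPKM against 17249 to 18838 FPKM in naive GMP, and their part in these differences was not tested.

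The genes of 3 wider cell cycle lists, without the 43 members, were counted in the same fits. Of 62 other G2 and M genes, 46 were higher and 1 lower in proNeu2 against proNeu1 (median 0.28), where 10% of all genes were higher and 21.4% lower. In proNeu1 against GMP 37 were higher and 4 lower (0.29), where 18.5% and 39.7% of all genes were. Of 50 other S phase genes, 5 were higher and 11 lower in proNeu2 against proNeu1, and 15 were higher and 10 lower in proNeu1 against GMP. In GMP-MoP against GMP, 29 of the 50 S phase genes exceeded their GMP level and 3 fell short of it, as did 29 and 4 of the 62 G2 and M genes and 21.4% and 29.1% of all genes; against cMoP, 0 S phase genes were higher and 22 lower, and 2 G2 and M genes were higher and 33 lower, with 19.9% of all genes higher and 20.1% lower. Against proNeu1, 27 S phase genes were higher and 2 lower, while 6 G2 and M genes were higher and 22 lower, with 30.2% and 17.5% of all genes. In cMoP against MDP, 9 S phase genes were higher and 13 lower, and 15 G2 and M genes were higher and 2 lower, with 18.2% and 28.8% of all genes. After LPS in GMP, 18 S phase genes rose and 6 fell, and 18 G2 and M genes rose and 6 fell, where 19.3% of all genes rose and 29.6% fell. In GMP-MoP, 5 S phase genes rose and 8 fell, and 21 G2 and M genes rose and 1 fell, where 13.4% of all genes rose and 17.6% fell. In proNeu1, 16 S phase genes rose and 4 fell, and 9 G2 and M genes rose and 4 fell, where 11.2% of all genes rose and 17.2% fell. In proNeu2, 11 S phase genes rose and 5 fell, and 9 G2 and M genes rose and 4 fell, where 12.6% of all genes rose and 24.1% fell. The 5 S phase genes of 50 that rose in GMP-MoP were a smaller share of their list than the 13.4% of all genes that rose.

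Changes of 2-fold were found mostly among 39 other cell cycle regulators. Ccnd1 (cyclin D1) was at 2.30 FPKM in naive GMP-MoP and 6.39 FPKM in naive GMP (-1.17), lower still in naive proNeu1 (0.429 FPKM, -2.36 against GMP), and lower in naive cMoP (10.3 FPKM) than in naive MDP (33.0 FPKM, -1.57). In GMP-MoP it was also lower than in cMoP (-1.80). Mycn, a Myc family factor, was listed at 0 in naive GMP-MoP and averaged 0.183 FPKM in naive proNeu1 (-3.02), against 8.61 FPKM in naive GMP. It was also listed at 0 in naive cMoP, against 1.37 FPKM in naive MDP. Btg2, an antiproliferative gene, was lower in GMP-MoP than in GMP (-1.25). E2f2, an activating E2F factor, was lower in GMP-MoP than in cMoP (4.66 and 20.6 FPKM, -1.95) and proNeu1 (18.9 FPKM, -1.83), as were the Myc antagonists Mxd3 against cMoP (-1.85) and Mxd1 against proNeu1 (-1.58), and the inhibitor Cdkn2d (p19) against proNeu1 (-1.28). Mxd1 was higher in proNeu1 than in GMP (1.14). Gadd45a (1.5) and Myb (1.08), named after their values were seen, were the 2 regulators higher by 2-fold or more in GMP-MoP than in cMoP.

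Cdkn1a (p21) was lower in naive proNeu2 (0.398 FPKM) than in naive proNeu1 (1.83 FPKM, -1.02) and lower in naive cMoP (3.30 FPKM) than in naive MDP (11 FPKM, -1.48). After LPS, Mycn fell to 0.375 FPKM in GMP, against 8.61 FPKM in naive GMP (-2.81), Ccnd1 to 1.28 FPKM, against 6.39 FPKM (-1.68), and Cdc25b, a phosphatase that activates Cdk1, to 8.26 FPKM, against 17.7 FPKM (-1.01). The 6 erythroid and megakaryocyte markers also stood lower after LPS, at 66.0 to 85.3 FPKM summed in LPS GMP and 438 to 502 FPKM in naive GMP, as did the 8 eosinophil, basophil and mast cell markers (6949 to 8295 FPKM and 17249 to 18838 FPKM), and their part in these changes was not tested. In proNeu2, Myc fell to 24.9 FPKM after LPS, against 51.1 FPKM in naive libraries (-1.01). None of the 3 lists held a 2-fold change with LPS in GMP-MoP or proNeu1. The LPS effect differed by at least 2-fold between GMP-MoP and GMP for 6 of the 39 regulators and for Cdc25b (1.10). Mycn had the largest fitted difference, for which no size is given because it was listed at 0 in naive GMP-MoP, and E2f2 (1.59) and Mxd3 (1.32) followed. Between proNeu1 and GMP the effect differed by that much for 5 regulators, among them E2f2 (1.18). Mycn (2.62) and Ccnd1 (1.44) had the largest fitted differences but were barely expressed in proNeu1. Mycn was at 0.0342 FPKM there after LPS and 0.183 FPKM in naive libraries, and Ccnd1 at 0.208 and 0.429 FPKM. A further fall in proNeu1 could hardly be measured for these genes.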

How the data were processed

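FPKM values of 11383 genes in 30 libraries were analysed as the authors deposited them. Per the submitters' processing notes they used Trimmomatic 0.38.0, STAR 2.7.8 and featureCounts 2.0.1 with GRCm38 (mm10), and per the labels' protocols RNA was extracted with an RNeasy Micro kit and libraries were made with a NEBNext UltraII Directional kit. The annotation release and the strand setting of counting are not given in the sources used here. The filter on low values, at least 1 FPKM in at least 3 libraries, removed 0 genes, so all 43 members were tested.

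From these values log2(FPKM + 1) was fitted with limma 3.58.1 in R 4.3.3 (intensity trend, all 30 libraries in 1 fit), and p-values were adjusted by Benjamini-Hochberg over all genes. Fold changes on this scale understate those of low genes. A gene rose, fell, or was higher or lower at adjusted p under 0.05, and changed 2-fold when the log2 fold change was also at least 1 in size. Group values are mean ± SD of 3, and errors of fold changes are SE. Whole reads were recovered from the FPKM for 11372 of 11383 genes (within 0.02 reads or 1e-07 of the count, at most 0.1; 0 of 200 shuffled genes), with totals of 23.6 M to 41.3 M per library (median 28.6 M); all 43 members were recovered. Depth covers counting error only.

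Named genes are the 43 members and, from each of 3 wider lists, up to 3 genes changed 2-fold with the largest changes, except Gadd45a and Myb, named after their values were seen. The members and lists were chosen with earlier results of these data known. Promoter sequences and their coordinates are RefSeq's on GRCm38.p6, and gene positions and exon overlaps are GENCODE M21's; 13 members share exon bases with another gene, 8 of them over 5%. Other steps ran in Python 3.11.15 (numpy 2.4.6, pandas 2.3.3, matplotlib 3.10.9). The fit was repeated with median-of-ratios scaling, with a pseudocount of 0.1, with the replicate number as a block, on only the groups of a comparison, without each library in turn, without the filter, on genes averaging at least 5 FPKM, with voom on recovered reads, and without a minimum fold. Where 0 G2/M members passed in a direction at any fold, 0 did at an unadjusted p under 0.05.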

Additional observations from a re-analysis of the deposited data

Results flagged for a closer look

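The LPS effect of these members differed between 2 populations by an interaction test in limma (adjusted p under 0.05 over all genes), given as the difference of the log2 fold changes. In GMP-MoP minus GMP, the effect was higher for Cdkn2c (0.90), Ccnd3 (0.82), Cdkn1b (0.78) and Nusap1 (0.55). It was lower for Ccnd2 (-0.78), Rrm2 (-0.39), Bub1 (-0.39), Cdk4 (-0.34), Mcm5 (-0.28) and Rrm1 (-0.20). Rrm2, Mcm5 and Rrm1 rose in GMP, and of these Rrm2 rose in GMP-MoP as well.

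In proNeu1 minus GMP, the effect was higher for Cdkn1b (0.80), Cdkn2c (0.71), Ccnd3 (0.55), E2f1 (0.36) and Tyms (0.32). It was lower for Ccnd2 (-0.56), Bub1 (-0.46), Aurka (-0.45), Cdk4 (-0.35) and Cdc20 (-0.31). Both comparisons use the same GMP libraries, and in both the share of members that passed lay near that of all genes.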

How the results depend on the processing

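Over 8600 single-gene values under the alternatives, 11 lost a 2-fold call and 281 gained a call, 262 of these because no minimum fold was asked. A reversal of direction was counted only for a gene called in the main or the alternative fit, and 0 were found. Changes of sign in genes without a call were not counted, so this says little about the direction of small changes. Dropping the minimum fold gave 22 members higher and 4 lower in GMP-MoP against GMP, 2 and 24 against cMoP, 13 and 13 against proNeu1, 23 and 6 in proNeu1 against GMP, 22 and 6 in proNeu2 against proNeu1, and 9 and 7 in cMoP against MDP. For LPS it gave 25 and 6 in GMP, 16 and 4 in GMP-MoP, 19 and 3 in proNeu1, 19 and 4 in proNeu2, and 4 and 6, then 5 and 5, for the effects in GMP-MoP and proNeu1 against GMP. The 2-fold count was 1 lower member in GMP-MoP against proNeu1 with a pseudocount of 0.1, with scaling and with voom. In proNeu1 against GMP it was 1 higher member with that pseudocount and voom, and 2 with scaling. With scaling it was 1 higher in LPS GMP and 0 lower in LPS proNeu2.

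Counts by class at any fold were added after seeing the data. With median-of-ratios scaling, G1/S genes were 8 higher and 3 lower and G2/M genes 11 higher in cMoP against MDP; G1/S genes 7 higher and G2/M genes 0 higher in GMP-MoP against proNeu1; G1/S genes 12 higher and 3 lower in proNeu1 against GMP and 3 lower in proNeu2 against proNeu1; and 1 gene of each class fell in LPS GMP. Fitting the compared groups alone gave 7 G1/S genes higher, 0 G2/M genes higher and 6 lower in GMP-MoP against proNeu1, and after LPS 2 G1/S genes lower in GMP-MoP, 1 G2/M gene lower in GMP, 3 G2/M genes higher in proNeu1 and 0 lower in proNeu2. The last count was 2 with the pseudocount of 0.1, the replicate block, a mean of at least 5 FPKM and voom. The cause of these changes was not tested.

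Leaving out each library in turn gave a 2-fold count of 0 to 2 lower in GMP-MoP against cMoP, 0 to 1 lower against proNeu1, 0 to 2 higher in proNeu1 against GMP, 0 to 1 in either direction in LPS proNeu2, 0 to 1 higher in LPS GMP, in LPS proNeu1 and for the effect in GMP-MoP against GMP, and 0 to 1 lower in LPS GMP-MoP. At any fold it gave 2 to 7 G2/M genes higher in cMoP against MDP. In GMP-MoP it gave 8 to 16 G1/S genes lower and 0 to 1 G2/M genes higher against cMoP, and 0 to 1 G2/M genes lower against GMP. Against proNeu1 it gave 7 to 13 G1/S genes higher, with 0 to 1 G2/M genes higher and 5 to 11 lower. After LPS it gave 1 to 2 G1/S and 0 to 2 G2/M genes lower in GMP, 3 to 5 G2/M genes higher and 0 to 1 lower in proNeu1, and 2 to 6 higher and 0 to 3 lower in proNeu2.

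Same-numbered libraries did not deviate together throughout: in no comparison were all 3 correlations of deviations over 0.1 (for GMP-MoP and proNeu1 they were 0.186, 0.375 and 0.0973), so the numbers are not taken as pairs. The replicate block changed 1 of these counts, that of G2/M genes lower in LPS proNeu2 (2 in place of 1). With 3 libraries a group and changes mostly under 2-fold, small differences may go undetected.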
